A study of Homo sapiens with 31 samples.

Results

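The PADI gene cluster holds PADI2, PADI1, PADI3, PADI4 and PADI6, in this order, on chromosome 1. The stretch described here covers these 5 genes and 50 kb on each side (hg19, chr1:17343256-17778195, 434940 bp), with genes placed by the GENCODE annotation of the same build. Every peak that the 13 deposited EVI1 and CTBP2 lists place in this stretch was taken, which gave 260 of 533140 peaks. Peaks of different lists that shared at least 1 bp were merged, and they formed 65 of 131683 merged regions of the genome. The locus was chosen by its called peaks, with the lists already known, so the presence of peaks in it and their fold enrichment are a description and not a finding. At its edges, the outermost peaks inside lay 6.46 kb and 9.68 kb from the left and right limits, with fold enrichments of 5.63 and 6.47. Fold enrichment is the ChIP signal at a peak's summit over the background that the peak caller took from the matched input. The nearest peaks outside lay 2.42 kb and 23.7 kb beyond them, at 16.3 and 3.88.

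The lists come from chromatin immunoprecipitation sequencing in 2 human leukemia cell lines with a rearranged EVI1 locus, MUTZ3 and MOLM1. EVI1 and CTBP2 lists exist for unmodified MUTZ3 cells (1 library each) and for MUTZ3 cells carrying the lentiviral construct pCW-4xPLDLS (2 libraries each with doxycycline, called dox below, and 2 each untreated, all labelled 72 h). CTBP2 lists also exist for MUTZ3 cells carrying the retroviral construct p50MX-3xFLAG-3xNLS-4xPLASS-Zeo (2 libraries) and for MOLM1 cells carrying a doxycycline-inducible shRNA against EVI1 and given no doxycycline (1 library). The labels describe MOLM1 as chronic myeloid leukemia in blast crisis. 4xPLDLS is a tandem repeat of the short motif through which proteins dock on CTBP2, and 4xPLASS is its mutated control. The labels give a double crosslink with disuccinimidyl glutarate for every list except CTBP2 in unmodified MUTZ3, which was from a single crosslink. For the 4xPLASS and MOLM1 libraries the inputs are labelled as single crosslink and the study's own table lists the ChIPs so too, so their crosslink is unsettled. The inducible cells have 1 input labelled dox and 1 labelled untreated, so in fold enrichment the treatment and its input cannot be told apart. No RNA level is in these lists, so the identity of the cells could not be checked against marker genes. Nothing in the labels says whether same-group libraries came from separate cultures, so the spread between them may be technical.

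PADI genes encode peptidylarginine deiminases, calcium-dependent enzymes that turn arginine residues of proteins into citrulline. PADI4 is the member best known in blood: it is abundant in granulocytes, enters the nucleus, citrullinates histones and takes part in the release of neutrophil extracellular traps. PADI2 is the most widely expressed member and is also made by myeloid cells, PADI1 and PADI3 are best known from the epidermis and the hair follicle, and PADI6 from the oocyte and early embryo. EVI1 is a zinc finger transcription factor encoded by MECOM, and CTBP2 is a corepressor that does not read DNA sequence itself but is brought to chromatin by such factors.

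The 6 regions on which the values below turn were, along the chromosome, one in intron 7 of PADI2, one 23.1 kb before the start site of PADI1, one in intron 1 of PADI1, one over exon 13 of PADI3, one in intron 15 of PADI3 and one 66 bp before the start site of PADI4. The summit base of their highest EVI1 peak in untreated inducible MUTZ3 cells is shown first, with 50 bases on each side, followed by the same stretch at the MOLM1 CTBP2 summits of 2 regions that ranked high in MOLM1 alone. They are written 5′ to 3′ on the plus strand of hg19, and capitals mark a match to any of 5 searched motifs.
PADI2 intron 7 (chr1:17411504-17411604): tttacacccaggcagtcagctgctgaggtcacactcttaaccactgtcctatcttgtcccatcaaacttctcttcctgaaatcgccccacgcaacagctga
Upstream of PADI1 (chr1:17508493-17508593): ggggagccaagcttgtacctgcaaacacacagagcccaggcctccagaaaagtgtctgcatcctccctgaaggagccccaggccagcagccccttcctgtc
PADI1 intron 1 (chr1:17539336-17539436): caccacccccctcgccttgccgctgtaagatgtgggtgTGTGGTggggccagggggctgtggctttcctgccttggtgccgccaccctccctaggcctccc
PADI3 exon 13 (chr1:17603239-17603339): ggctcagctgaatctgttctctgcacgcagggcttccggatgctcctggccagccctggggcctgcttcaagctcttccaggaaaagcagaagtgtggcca
PADI3 intron 15 (chr1:17608466-17608566): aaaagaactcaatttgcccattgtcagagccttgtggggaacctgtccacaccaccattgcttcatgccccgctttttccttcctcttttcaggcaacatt
PADI4 start site (chr1:17634574-17634674): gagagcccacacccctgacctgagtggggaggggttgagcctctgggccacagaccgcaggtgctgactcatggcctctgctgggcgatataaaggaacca
PADI3 intron 1, MOLM1 (chr1:17577293-17577393): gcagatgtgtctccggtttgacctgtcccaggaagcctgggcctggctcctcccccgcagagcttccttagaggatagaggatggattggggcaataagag
Upstream of PADI4, MOLM1 (chr1:17630895-17630995): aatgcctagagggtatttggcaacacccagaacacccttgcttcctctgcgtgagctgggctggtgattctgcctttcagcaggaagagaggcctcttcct

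The motifs searched on both strands were AAGATAA and GATAAG, letters bound by GATA factors and by the first zinc finger domain of EVI1, GAAGATGA, bound by its second zinc finger domain, AGGAAGT of ETS factors and TGTGGT of RUNX factors. AAGATAA and GATAAG overlap in their GATAA letters. Of the 19 EVI1 sites of the stretch (called in both untreated libraries), 14 held none of these letters within 50 bases of the summit. AGGAAGT was found at 3 of 19, against 7.68% of the 39661 EVI1 sites of the genome that could be read on the reference, and TGTGGT at 1 of 19, against 10.3%. GATAAG was found at 1 of 19, against 2.85%, AAGATAA at 0 of 19, against 0.862%, and GAAGATGA at 0 of 19, against 0.751%. The TGTGGT match lay in the PADI1 intron 1 region and the GATAAG match in intron 10 of PADI3. The AGGAAGT matches lay in intron 1 of PADI2, intron 1 of PADI1 and exon 12 of PADI1, the last beside an EVI1 summit in intron 11. The GC content of the 19 windows ran from 47.5% in PADI3 intron 15 to 77.2% before the start site of RCC2. A letter match is no evidence of a bound factor, and a window without one says only that these letters are not in it.

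The 65 regions were spread over the cluster unevenly. Of them 34 had their summit inside a PADI gene, 27 in introns and 7 in exons, 24 lay between genes and 7 in the bodies of other genes. EVI1 and CTBP2 peaks occurred together in 32 regions, EVI1 alone in 15 and CTBP2 alone in 18. Many regions rested on few lists: 27 were called in only 1 of the 13 lists, 6 in at least 10, and 2, both in PADI3, in all 13. In the stretch each list held between 3 peaks (4xPLASS replicate 1) and 39 peaks (untreated EVI1 replicate 2), which was between 0.0366% and 0.0605% of the list. The number of peaks here thus went with the length of the list, which ran from 6688 peaks (4xPLASS replicate 1) to 72214 (untreated EVI1 replicate 2). The depth of the libraries is unknown, since the lists give no read counts.

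**Figure D1:**
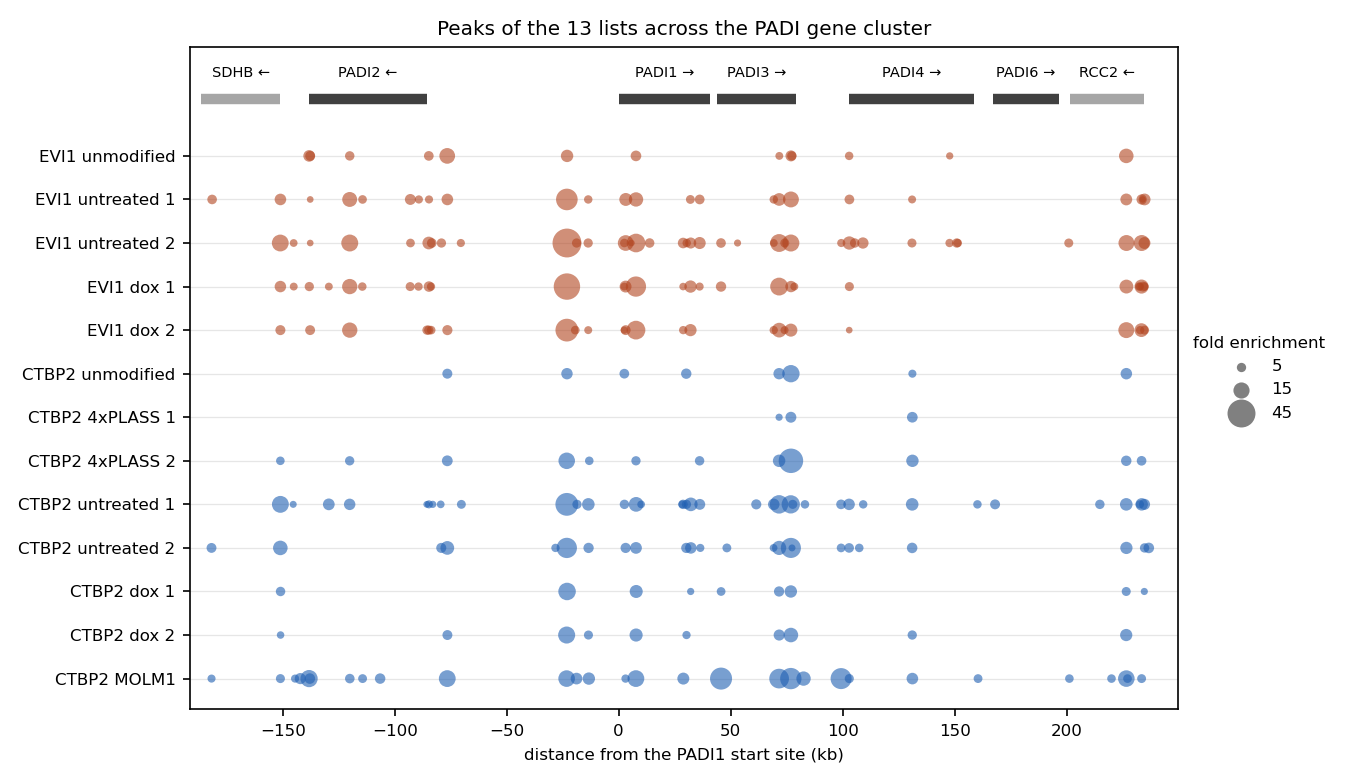
Peak summits of the 13 lists (rows, EVI1 red and CTBP2 blue) by distance from the PADI1 start site in kb, with dot area in proportion to fold enrichment and gene bodies drawn above. The largest dots sit 23.1 kb before PADI1, in PADI3 and, in MOLM1, also before PADI4, while PADI6 carries no EVI1 dot.

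EVI1 sites were present at 4 of the 5 PADI genes and CTBP2 sites at 3. A site here is a stretch called in both untreated libraries of a target in the inducible cells, counted for a gene when it overlaps the gene body or the 1 kb before the start site. The background is high: 70.2% of 20163 protein-coding genes held an EVI1 site by the same count, and 80.8% of the 3438 genes as long as the PADI genes (29.5 kb for PADI6 to 55.8 kb for PADI4). For CTBP2 sites these shares were 67.3% and 78.5%. The 4 and 3 occupied PADI genes are thus near what this background gives.

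PADI2 held 4 EVI1 sites and 0 CTBP2 sites. PADI1 held 4 EVI1 and 5 CTBP2 sites, PADI3 3 and 4, and PADI4 2 and 2. PADI6 (ENSG00000276747, chr1:17698691-17728195) held 0 of either, and its sole peak in any list was a CTBP2 peak of untreated replicate 1 over exon 2 (fold enrichment over input 5.69). An EVI1 site lay within 1 kb of the start of PADI2 and of PADI4 (2 of 5 genes), beside 56% of all genes and 64.7% of genes of PADI length. A CTBP2 site lay within 1 kb of the start of PADI4 (1 of 5), beside 52.9% and 61.4%. These shares were not compared by a test.

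PADI2 (ENSG00000117115, chr1:17393256-17445946, minus strand, 16 exons) lies at the low-coordinate end of the cluster. Its EVI1 region with the highest mean in untreated cells lay in intron 7 (chr1:17411279-17411898). Its EVI1 fold enrichment was 12.8 and 16.5 in the 2 untreated libraries, 13.5 in each of the 2 dox libraries and 5.14 in unmodified MUTZ3. CTBP2 was called there in untreated replicate 1 (7.57), in 4xPLASS replicate 2 (5.02) and in MOLM1 (5.27), and in no other list. EVI1 was thus called in 5 of 5 lists and CTBP2 in 3 of 8. At the upstream edge of the gene, about 1 kb before the start site, the untreated EVI1 values were 3.80 and 9.33 and the dox values 6.40 and 4.90, and CTBP2 reached 3.75 in untreated replicate 1 only. The remaining EVI1 sites of the gene lay in intron 1 (6.90 and 4.36 in untreated cells, 4.69 in dox replicate 1) and at the last exon (2.59 and 2.55, against 4.94 and 5.64 with dox). At the last exon the summits differed in place, at chr1:17393896 and chr1:17393898 in untreated cells and at chr1:17393490 and chr1:17393854 with dox. None of the 4 EVI1 sites of PADI2 met a CTBP2 site, and all 9 of PADI1, PADI3 and PADI4 did, beside 75.9% of all EVI1 sites. The difference between the genes was not tested. In untreated replicate 1 alone, 2 of the 4 overlapped a CTBP2 peak.

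The highest EVI1 values of the stretch lay between PADI2 and PADI1, 23.1 kb before the start of PADI1 and in no protein-coding gene (chr1:17508206-17508838). This region is named for its height, after its values were seen. EVI1 fold enrichment was 26.9 and 48.0 in untreated cells, 40.2 and 29.9 with dox and 8.86 in unmodified MUTZ3. These peaks ranked 920 of 51389 and 445 of 72214 in the untreated lists and 329 of 53806 and 554 of 47599 in the dox lists. CTBP2 fold enrichment was 29.9 and 23.7 in untreated cells, 17.6 and 16.7 with dox, 7.50 in unmodified MUTZ3, 15.7 in 4xPLASS replicate 2 and 15.9 in MOLM1. Only 4xPLASS replicate 1, the shortest list, had no peak there. By rank CTBP2 stood at 531 of 62232 and 600 of 56526 in untreated cells and at 142 of 24588 and 317 of 23878 with dox.

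PADI1 (ENSG00000142623, chr1:17531623-17572502) and the genes after it lie on the plus strand. In PADI1 the region with the highest untreated EVI1 mean lay 7.72 kb into intron 1 (chr1:17538915-17539930). EVI1 was 11.8 and 20.1 in untreated cells, 23.6 and 20.2 with dox and 6.53 in unmodified MUTZ3. CTBP2 was 12.5 and 7.95 in untreated cells, 9.77 and 9.93 with dox, 4.95 in 4xPLASS replicate 2 and 16.1 in MOLM1. Both dox EVI1 values thus lay above both untreated ones, while the CTBP2 groups overlapped. A further region in the same intron, 3.14 kb after the start site, had untreated EVI1 values of 9.64 and 14.2 and dox values of 8.16 and 5.64, and CTBP2 at 5.10 and 5.99 in untreated cells but no dox peak. The other PADI1 sites lay in intron 11, at the border of intron 11 and exon 12, and in intron 15, with untreated CTBP2 values from 3.82 to 10.8.

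PADI3 (ENSG00000142619, chr1:17575593-17610728) held the 2 regions of the stretch that were called in all 13 lists. In intron 15 (chr1:17607933-17609495) CTBP2 was higher than anywhere else in the stretch in 3 lists: 17.3 in unmodified MUTZ3 (rank 241 of 16836), 6.89 in 4xPLASS replicate 1 (rank 1188 of 6688) and 34.5 in 4xPLASS replicate 2 (rank 32 of 31310). It was 19.2 and 23.3 in untreated inducible cells, 8.88 and 12.3 with dox and 26.2 in MOLM1. EVI1 at the same place was 14.6 and 16.7 in untreated cells, 7.48 and 9.82 with dox and 6.99 in unmodified MUTZ3. Both proteins were thus lower in both dox libraries than in both untreated ones. The CTBP2 ranks overlapped, at 2549 of 62232 and 644 of 56526 untreated and at 1872 of 24588 and 983 of 23878 with dox, in lists that differ in length.

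The other PADI3 region present in every list lay over exon 13 (chr1:17602960-17603865). CTBP2 was 19.7 and 11.6 in untreated cells, 6.07 and 7.12 with dox, 7.46 in unmodified MUTZ3, 2.96 and 8.94 with 4xPLASS and 22.4 in MOLM1. EVI1 was 9.28 and 18.4 in untreated cells, 18.3 and 12.4 with dox and 3.58 in unmodified MUTZ3. Here the CTBP2 values with dox lay below both untreated ones and the EVI1 groups overlapped. PADI3 intron 10 held a weaker pair of sites, with EVI1 at 4.10 and 3.50 and CTBP2 at 7.65 and 3.47 in untreated cells.

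At PADI4 (ENSG00000159339, chr1:17634690-17690499), the highest EVI1 region by the same rule was the start site itself (chr1:17634179-17635104). EVI1 was 5.47 and 10.2 in untreated cells, 4.72 and 2.55 with dox and 4.12 in unmodified MUTZ3. By rank from the strongest, these peaks stood at 58.3% and 20.7% of the untreated lists and at 67.2% and 99.4% of the dox lists. CTBP2 was 7.64 and 5.37 in untreated cells, 4.80 in MOLM1 and not called with dox, with 4xPLASS or in unmodified MUTZ3. In each untreated inducible list, both proteins thus had lower values at the PADI4 start than in PADI1 intron 1 at 7.72 kb. The same held against the PADI3 regions of exon 13 and intron 15. In unmodified MUTZ3, EVI1 at the PADI4 start (4.12) was above PADI3 exon 13 (3.58). It was below PADI1 intron 1 (6.53) and PADI3 intron 15 (6.99). Around exon 4, with summits from intron 3 to intron 4 and within the overlapping gene model AC004824.2 on the other strand, CTBP2 was called in 7 of 8 lists, at 9.13 and 6.36 in untreated cells, 4.98 in dox replicate 2, 3.78 in unmodified MUTZ3, 6.60 and 8.84 with 4xPLASS and 7.77 in MOLM1. EVI1 was called there in the 2 untreated lists alone, at 3.68 and 4.68.

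**Figure D2:**
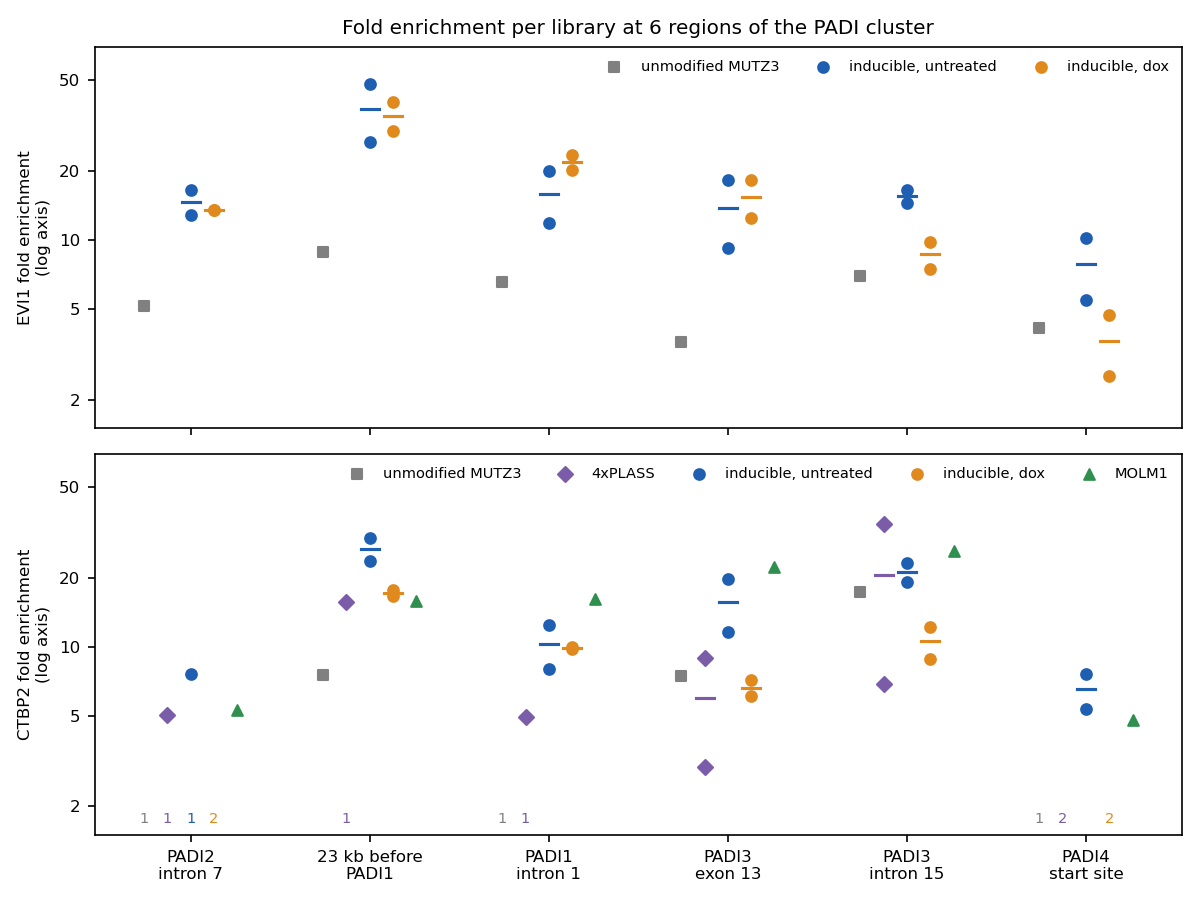
Fold enrichment on a log axis at 6 regions (columns) for EVI1 (top) and CTBP2 (bottom), a marker per library and a short line at the mean of groups of 2, with small digits at the foot counting libraries that had no peak. CTBP2 with dox lies below untreated before PADI1 and at both PADI3 regions, and overlaps it in PADI1 intron 1.

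Distances between EVI1 and CTBP2 summits were taken only where both peaks fell in the same merged region, which by itself favours short distances. The same distances were not taken over the genome. Over the 34 cases in which both were called in a region in untreated libraries with the same replicate number, the distance between the summits had a median of 48 bp, and 27 were within 100 bp. The full range ran from 1 bp to 605 bp. Of the 19 EVI1 sites 14 overlapped a CTBP2 site (73.7%, 95% Wilson interval 51.2% to 88.2%), near the share over all EVI1 sites. In the other direction 15 of 18 CTBP2 sites overlapped an EVI1 site, beside 82.5% of all CTBP2 sites. Both shares were near those of the whole genome, and these intervals and shares cover counting error only. Between unmodified MUTZ3 lists, 5 of 13 EVI1 peaks overlapped a CTBP2 peak, beside 43.0% of all 21505 unmodified EVI1 peaks.

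The inducible cells compare dox with no dox in cells that carry the competitor for the CTBP2 docking site. No list comes from dox-treated cells that carry the mutated control or no construct, so an effect of dox itself was not tested. Differences between dox and untreated libraries thus cannot be assigned to the competitor alone. With dox the stretch held 9 and 10 CTBP2 peaks, against 37 and 24 in untreated cells (9.50 ± 0.707 against 30.5 ± 9.19, mean ± SD, n = 2), a log2 ratio of -1.68. By exact permutation of the libraries (two-sided) p was 0.333, and 2 against 2 libraries allow no smaller p. The CTBP2 dox lists are shorter throughout the genome, and as a share of the list the stretch held 0.0366% and 0.0419% with dox against 0.0595% and 0.0425%. With the CTBP2 lists of the inducible cells reduced to their 23878 strongest peaks by −log10 p, not by fold enrichment, the log2 ratio was -0.44. For EVI1 the counts were 28 and 24 with dox and 24 and 39 untreated (26 ± 2.83 against 31.5 ± 10.6, n = 2), and the groups overlapped (log2 ratio -0.28, exact permutation p = 1). Without untreated EVI1 replicate 2 that ratio was 0.12.

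Of the 18 CTBP2 sites, dox replicate 1 still called 8 and dox replicate 2 called 9 (47.2% ± 3.93 on average, SD, n = 2). Over all CTBP2 sites the shares were 50.8% and 46.5%. Both dox libraries held 6 of them, beside 38.4% of all CTBP2 sites, and neither held 7, beside 41% of all. The cluster was thus near the whole list in its share of sites without a call. With lists of equal size the average share was 81.2% of 8 sites, and the share over the genome at equal size was not taken. Of the 19 EVI1 sites, 14 were in both dox lists, beside 78.1% of all EVI1 sites, and 1 was in neither, beside 9.01%. That site was the one around exon 4 of PADI4.

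The 7 CTBP2 sites without a call in either dox library were the start site of PADI4, a place 3.7 kb before it, introns 1 and 15 of PADI1, intron 10 of PADI3, a weak site at the border of PADI3 intron 15 and exon 16, and a place 6.47 kb before PADI2. Their mean fold enrichment in untreated cells ran from 3.78 to 6.50. The 6 sites called in both dox libraries were those before PADI1, in PADI1 intron 1, PADI3 exon 13, PADI3 intron 15, the SDHB start site and RCC2 intron 2. Their untreated means ran from 8.89 to 26.8, above all 7 of the first kind. The same order held in the median over the genome, 5.75 for the 15273 sites in neither list and 10.7 for the 14297 sites in both. Sites without a dox call were thus the lower ones in untreated cells. The dox lists are shorter, and how far their calling threshold set these calls was not tested.

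**Figure D3:**
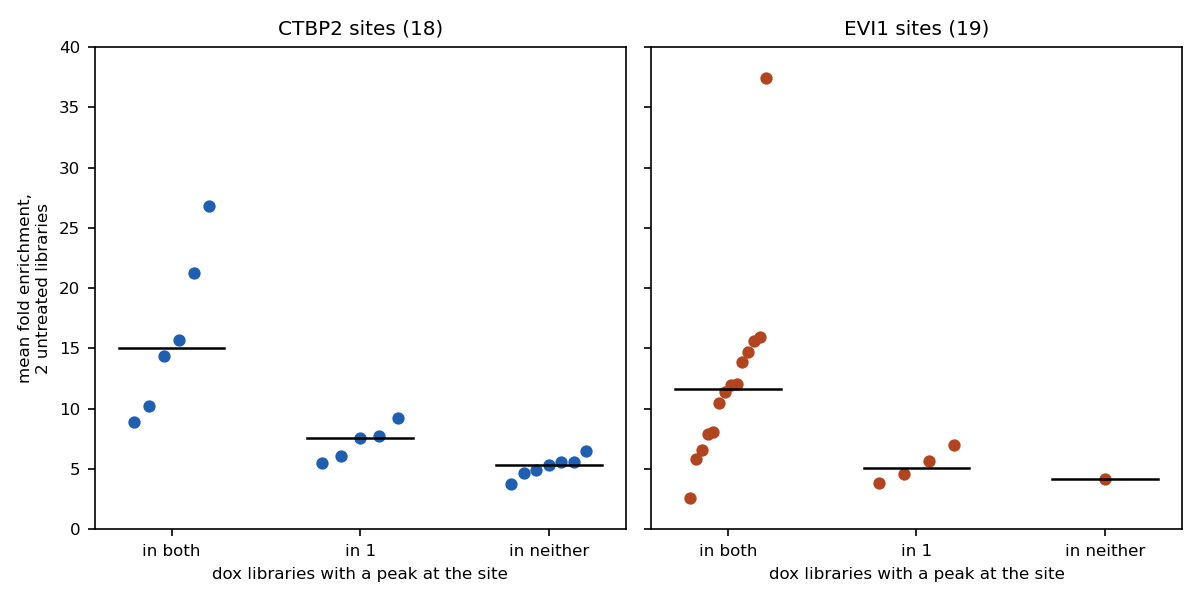
Mean fold enrichment in the 2 untreated libraries for the 18 CTBP2 sites (left) and 19 EVI1 sites (right), split by whether both, 1 or neither dox library had a peak; lines are medians and the sideways spread has no meaning. CTBP2 sites without a dox call lie between 3.78 and 6.50 and those with a call in both dox libraries between 8.89 and 26.8.

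Where CTBP2 was called in all 4 inducible libraries, its fold enrichment was lower on average with dox in 6 of 6 regions, beside 91.7% of such regions in the genome, and in 5 of them both dox values lay below both untreated ones, beside 72.5%. The log2 ratio of a region, dox over untreated, was taken between the means of the log2 values. Its median was -0.83 here and -0.86 over the genome. It was -0.63 before PADI1, -1.20 at PADI3 exon 13, -1.02 in PADI3 intron 15, -1.79 at the SDHB start site, -0.48 in RCC2 intron 2 and -0.02 in PADI1 intron 1. Each region whose groups did not overlap gave the smallest possible exact permutation p of 0.333 (n = 2 against 2), so none of these differences could pass a test. The region in PADI1 intron 1 was the one of the 6 whose fold enrichment overlapped between the groups (9.85 ± 0.117 with dox, 10.2 ± 3.22 untreated, SD, n = 2). By −log10 p the groups did not overlap there, with untreated values of 41.9 and 24.9 and dox values of 21.6 and 20.2, so whether they overlap depends on the measure.

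For EVI1, 14 regions were called in all 4 libraries, of which 8 were lower on average with dox (beside 66.4% of such regions in the genome) and 6 higher. In 5 both dox values lay below both untreated ones, beside 35.5%, and in 3 they lay above, beside 13.3%. The 5 were PADI3 intron 15 (log2 ratio -0.86), PADI1 intron 1 at 3.14 kb (-0.79), and the start sites of PADI4 (-1.11), SDHB (-0.76) and RCC2 (-0.94). The 3 were PADI1 intron 1 at 7.72 kb (0.50), the border of PADI1 intron 11 and exon 12 (0.62) and the last exon of PADI2 (1.04), where the summit of dox replicate 1 lay apart from the untreated ones, so the value does not compare 1 and the same peak. Each gave an exact permutation p of 0.333, the smallest possible with n = 2 against 2. EVI1 before PADI1, the highest of the cluster, had overlapping groups (35 ± 7.28 with dox, 37.4 ± 14.9 untreated, SD, n = 2), as had PADI2 intron 7 and PADI3 exon 13.

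MOLM1 showed a partly different CTBP2 profile over the same genes. Of the 18 CTBP2 sites of untreated MUTZ3 cells 11 were found in MOLM1 (61.1%, 95% Wilson interval 38.6% to 79.7%), beside 61.9% of all sites. Of the 29 MOLM1 peaks of the stretch 18 overlapped a CTBP2 peak of a MUTZ3 list without dox, beside 63.1% of all MOLM1 peaks. Sharing was thus near that of the genome, while the order of heights differed. The highest MOLM1 peak of the cluster lay in intron 1 of PADI3, 1.75 kb after the start site (chr1:17577052-17577530), with a fold enrichment of 27.9 and rank 796 of 64569. No MUTZ3 CTBP2 list without dox had a peak there, and dox replicate 1 had 4.41. EVI1 was called there in untreated replicate 2 (5.34) and dox replicate 1 (6.17).

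The region 3.7 kb before the PADI4 start (chr1:17630747-17631520) had a MOLM1 fold enrichment of 25.4, rank 1200 of 64569. In untreated MUTZ3 cells CTBP2 was 5.41 and 4.40 there, at 58.9% and 72.9% of the lists, and no other CTBP2 list had a peak. EVI1 was called there in untreated replicate 2 alone (3.83). At the last exon of PADI2 MOLM1 reached 17.1, at 6.96% of the list, with no CTBP2 peak in any MUTZ3 list and an EVI1 peak in all 5. Another MOLM1 peak, 20.5 kb before PADI4, had 11.9 and no peak in any other list. The PADI3 regions in intron 15 and over exon 13 stood high in both lines, at 1.65% and 2.99% of the MOLM1 list. The region before PADI1 stood at 8.32% of the MOLM1 list, against 0.853% and 1.06% of the untreated inducible MUTZ3 lists. The remaining MUTZ3 lists without dox lay on both sides of MOLM1. It stood at 18.8% in unmodified cells and 2.62% in 4xPLASS replicate 2, and had no peak in 4xPLASS replicate 1. MOLM1 has a single library, so none of these differences has a replicate check, and the cell line cannot be told apart from the library.

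**Figure D4:**
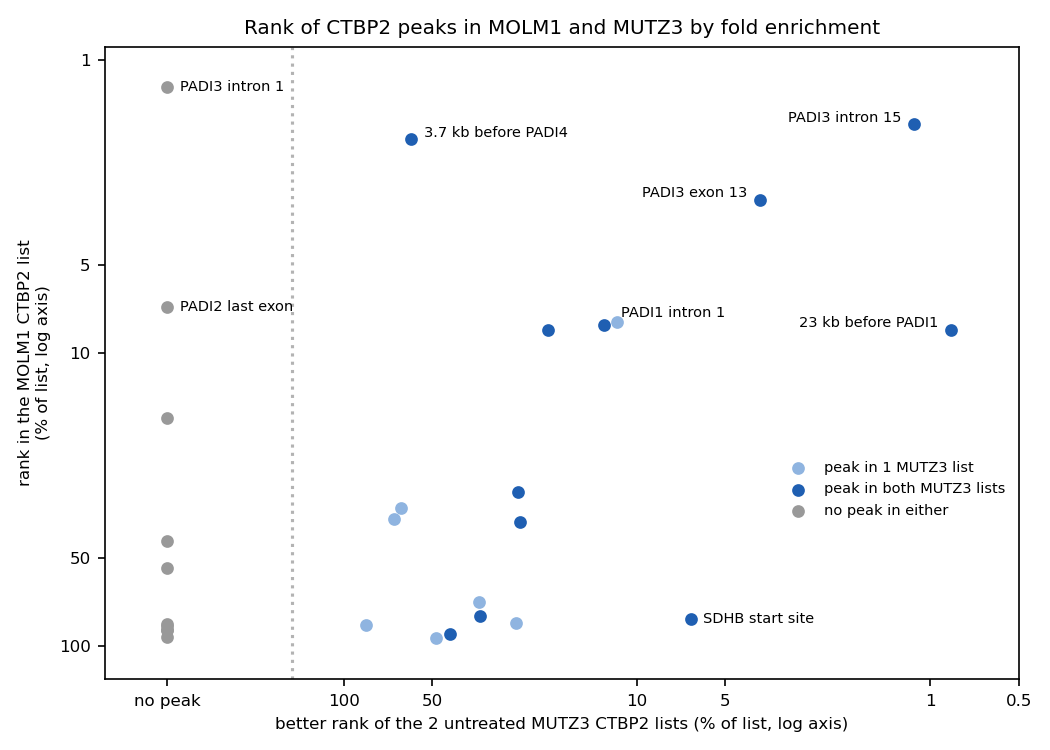
Rank of each of the 28 regions with a MOLM1 CTBP2 peak as a percent of the MOLM1 list. The horizontal axis is the better rank in the 2 untreated inducible MUTZ3 CTBP2 lists (log axes, strongest at top and right). Regions without a peak in either of these MUTZ3 lists sit at the left edge. PADI3 intron 15 and exon 13 are high in MOLM1 and in these MUTZ3 lists, whereas PADI3 intron 1 and the region before PADI4 are high in MOLM1 only.

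The 4xPLASS libraries differed from each other. Replicate 1 held 3 peaks in the stretch, in PADI3 exon 13, PADI3 intron 15 and around PADI4 exon 4, and replicate 2 held 12. Replicate 2 called all 3 of these as well. Replicate 1 has 6688 peaks in all and replicate 2 has 31310. The region before PADI1 stood at 15.7 in replicate 2 and had no peak in replicate 1. PADI3 exon 13 and the region around PADI4 exon 4 stood lower in replicate 2, at 8.94 and 8.84, and were called in replicate 1. Why peaks are missing in replicate 1 was not tested.

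The neighbouring start sites were occupied too. At the start of SDHB, a subunit of succinate dehydrogenase, CTBP2 was 16.4 and 12.2 without dox and 5.16 and 3.26 after it. At the start of RCC2, a mitotic regulator, CTBP2 was 7.01 and 5.08 without dox, 2.96 in dox replicate 1 and not called in dox replicate 2. In intron 2 of RCC2 the CTBP2 values were 9.13 and 8.66 without dox, 4.70 and 8.62 after it. SDHB held 1 EVI1 and 1 CTBP2 site, RCC2 3 and 2, and AC004824.2 shared 1 of each with PADI4. The protein arginine methyltransferases are another family of enzymes that act on arginine residues, with genes of 8.88 kb (PRMT5) to 213 kb (PRMT8). The share for genes of these lengths was not taken. EVI1 and CTBP2 sites lay at 8 of these 9 genes, PRMT8 being the exception, beside the 70.2% and 67.3% of all genes given above. All 8 carried both within 1 kb of the start site, and 1 of the 5 PADI genes did, beside 51% of all genes and 59.7% of genes of PADI length. The lists were not compared by a test. Of 5 granule protein genes whose products occur in neutrophil extracellular traps, 3 held an EVI1 site and 2 a CTBP2 site, beside the same 70.2% and 67.3%. MPO held 1 site of each, ELANE and PRTN3 an EVI1 site, CTSG a CTBP2 site and AZU1 0 of either. These genes are short, from 2.73 kb (CTSG) to 11.1 kb (MPO), and short genes overlap fewer sites. The share for genes of that length was not taken.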

How the data were processed

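EVI1 and CTBP2 occupancy was measured by ChIP-seq. The authors aligned reads to hg19 with bowtie (1.1.1) and called peaks with MACS2 (2.1.2 in the submitters' notes) with default parameters against a matched input, separately for each library. The deposited lists give a fold enrichment ratio over input, a −log10 p-value, a −log10 q-value and a score for each peak; the score was not used. Read counts are not in the lists, so depth is unknown and the differential binding software of the study, which needs reads, was not run. Fold enrichment is comparable within a list, so ranks by fold enrichment are given too. Group membership came from the labels.

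Intervals sharing 1 bp were merged, and a site was called in both untreated libraries. Dox and untreated libraries were compared by exact permutation tests (2 against 2). Analyses used Python 3.11.15, NumPy 2.4.6 and SciPy 1.17.1, and were tested on simulated data. Genes were those of GENCODE (hg19), and sequences came from the GRCh37 reference; 840 EVI1 sites and MOLM1 peaks lay on sequences not used here. Placement within genes used the canonical transcript. The named regions were, for each PADI gene, the one with the highest untreated EVI1 mean, regions in all 13 lists, and CTBP2 sites without a dox call; others are given after their values were seen. The genes, lists and tests were chosen with earlier results of these data known. Alternatives covered peak filters, flank, overlap, site definition, list length and libraries left out.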

Additional observations from a re-analysis of the deposited data

How the results depend on the processing

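The exact permutation tests cannot go below p = 0.333 with 2 against 2 libraries, and depth is unknown. The log2 ratio of CTBP2 peak counts was negative under all alternatives run (-1.96 to -1.34 with a library left out); that of EVI1 counts ran from -0.58 to 0.12 with a library left out, turning positive without untreated replicate 2. The average share of CTBP2 sites found with dox, 47.2%, was 41.7% at a fold enrichment of at least 5, 40% with a 10 kb flank, 39.3% for peaks nearest a PADI start, 81.2% with lists of equal size, 20.9% for sites of either untreated library and 23% to 50% with a library left out, lowest without untreated CTBP2 replicate 2. For EVI1 sites it was 84.2%, and 82.1% at a −log10 q of at least 5, 75% at a fold enrichment of at least 5, 80% with a 10 kb flank, 83.3% for peaks nearest a PADI start, 90.6% with lists of equal size, 81.6% for summits within 200 bp, 47.6% for sites of either library and 50% to 84.2% with a library left out, lowest without untreated EVI1 replicate 1. The share of EVI1 sites with a CTBP2 site, 73.7%, was 43.8% with lists of equal size within each target. Those held 47599 EVI1 peaks and 23878 CTBP2 peaks, so they differed in length between the targets. The genome share at these sizes was not taken. In the unmodified lists the share was 38.5%, beside 43.0% over the genome in the same lists. With a library left out it was 46.2% (without untreated EVI1 replicate 1) to 89.5%. The share found in MOLM1 stayed within its interval under all alternatives run, at 43.2% to 54.2% with a library left out. Without 1 untreated library of a target, a site was a peak of the single untreated list left, so the sites are not those used above. CTBP2 sites then numbered 24 (without replicate 1) or 37 (without replicate 2), in place of 18. EVI1 sites numbered 39 or 24, in place of 19. How far this and the other changes of setting account for the shifts was not tested.

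At the strongest region of each gene, EVI1 in PADI2 intron 7 (log2 ratio -0.11) was 0.048 by rank percentile, 0.31 by −log10 p and -0.29 to 0.072 with a library left out, and CTBP2 in PADI1 intron 1 (-0.02) was 1.36 by rank percentile, in lists of unequal length, -0.63 by −log10 p and -0.34 to 0.31 with a library left out. With a library left out the others ran from 0.12 to 0.88 (EVI1 at PADI1), -1.06 to -0.66 (EVI1 at PADI3), -1.25 to -0.79 (CTBP2 at PADI3) and -1.56 to -0.66 (EVI1 at PADI4).

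Libraries share replicate numbers only. Comparing same-numbered libraries as a replicate block gave log2 count ratios of -1.65 (CTBP2) and -0.24 (EVI1) and shares of 31.6% (CTBP2) and 63.9% (EVI1), in which a site is a peak of a single untreated list. Deviations of same-numbered libraries correlated at 0.21 over 14297 CTBP2 regions and at -0.24 over 31340 EVI1 regions. The crossed pairing of EVI1 libraries, chosen after seeing the data, gave a replicate block share of 63.1%.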

Other observations

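At the last exon of PADI2 the MOLM1 CTBP2 and MUTZ3 EVI1 peaks did not coincide throughout. The highest MOLM1 summit lay at chr1:17393387 and that of unmodified MUTZ3 EVI1 at chr1:17393417 (fold enrichment 7.79), while the 2 untreated inducible EVI1 summits lay at chr1:17393896 and chr1:17393898 (2.59 and 2.55). Unmodified EVI1 also had a lower peak with its summit at chr1:17393889 (5.65), and MOLM1 at chr1:17393734 (6.45).

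EVI1 in unmodified MUTZ3 had its highest value of the stretch 9.15 kb before PADI2, at 14.2 (rank 1335 of 21505). The inducible EVI1 lists called that region in untreated replicate 1 (7.76) and dox replicate 2 (5.90) only, and CTBP2 there was 16.3 in MOLM1, 10.8 in untreated replicate 2, 6.71 in 4xPLASS replicate 2, 5.76 in unmodified MUTZ3 and 5.70 in dox replicate 2.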
